A study of Mus musculus with 16 samples.

Results

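The comparison described here sets MEC1 cells that received both PRMT1 siRNA and p53 siRNA and were treated with TGF-beta (2 libraries) against MEC1 cells that received PRMT1 siRNA alone and were treated with TGF-beta (2 libraries). MEC1 is an established mouse epicardial cell line. All 4 libraries carry PRMT1 siRNA and TGF-beta, so by their labels the groups differ only in the p53 siRNA. Whether the total amount of siRNA was the same is not given. The libraries were chosen by their titles, 4 of the 16 in the series, and all 46348 genes of the count table were considered, of which 15494 passed the filter on low counts and were tested. The other 12 libraries, 2 each, received both siRNAs, PRMT1 siRNA, p53 siRNA or control siRNA without TGF-beta, or p53 siRNA or control siRNA with TGF-beta. The siRNA amounts and the dose and duration of TGF-beta are not given in the sources used here. The series calls the 2 libraries of a group biological replicates without saying whether they came from separate cultures, so p-values measure the spread between these libraries. An siRNA lowers a transcript without removing it. In bulk RNA, fewer cells that express a gene and less RNA per cell cannot be told apart.

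The epicardium is the mesothelial sheet that covers the heart. TGF-beta drives epicardial cells to leave it as mesenchymal cells, through SMAD transcription factors that switch on matrix, contractile and feedback genes. p53 is a transcription factor that switches on genes of cell cycle arrest, cell death and repair. Mdm2, a ubiquitin ligase, and its partner Mdm4 hold p53 in check. PRMT1 is the main enzyme that places asymmetric methyl marks on arginine residues, including in proteins that govern splicing. The study's title places PRMT1, Mdm4 and p53 in 1 pathway of epicardial invasion. The comparison asks which genes change when p53 siRNA is added to PRMT1 siRNA under TGF-beta, whether or not PRMT1 siRNA changed them.

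The 4 libraries held 26039122 to 30759317 counts each, against 19617874 to 30759317 over the series. Levels are CPM, each library's counts scaled to a common total with TMM factors, unless a log2 change is named, and a log2 change is the level with both siRNAs over the level with PRMT1 siRNA alone, ± its standard error from edgeR with n = 2 libraries a group. Calls are genes whose p from edgeR's quasi-likelihood test, adjusted over all 15494 genes by Benjamini-Hochberg, was under 0.05. Replicate 2 of p53 siRNA with TGF-beta, which is not in the comparison but enters the shared estimate of the spread, stood apart. It differed from its partner by 0.887 in root mean square on the log2 scale, whereas partners differed by 0.399 to 0.487 elsewhere, and 5.75% of its counts were 18S ribosomal RNA. Counts of calls are therefore given from 16 libraries and from a length-adjusted fit, which leaves that library out and takes from every library its trend with the length of transcripts.

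Adding p53 siRNA raised 34 genes (0.219% of those tested) and lowered 36 (0.232%). By 2-fold or more, 4 rose and 8 fell. At an unadjusted p under 0.05 there were 1621 genes. The length-adjusted fit called 818 genes higher (5.28%) and 925 lower (5.97%), and all 70 genes called with 16 libraries were called in the same direction there. That fit makes 2 changes: 15 libraries without length offsets called 2050 genes, and length offsets with all 16 libraries called 351. The count of 70 fell to 5 and 13 without replicates 1 and 2 of PRMT1 siRNA with TGF-beta, and to 13 and 1 without replicates 1 and 2 of both siRNAs with TGF-beta. With length offsets and 15 libraries the counts without those libraries, in the same order, were 471, 784, 1154 and 460, with 65, 67, 68 and 65 of the 70 genes among them.

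**Figure D1:**
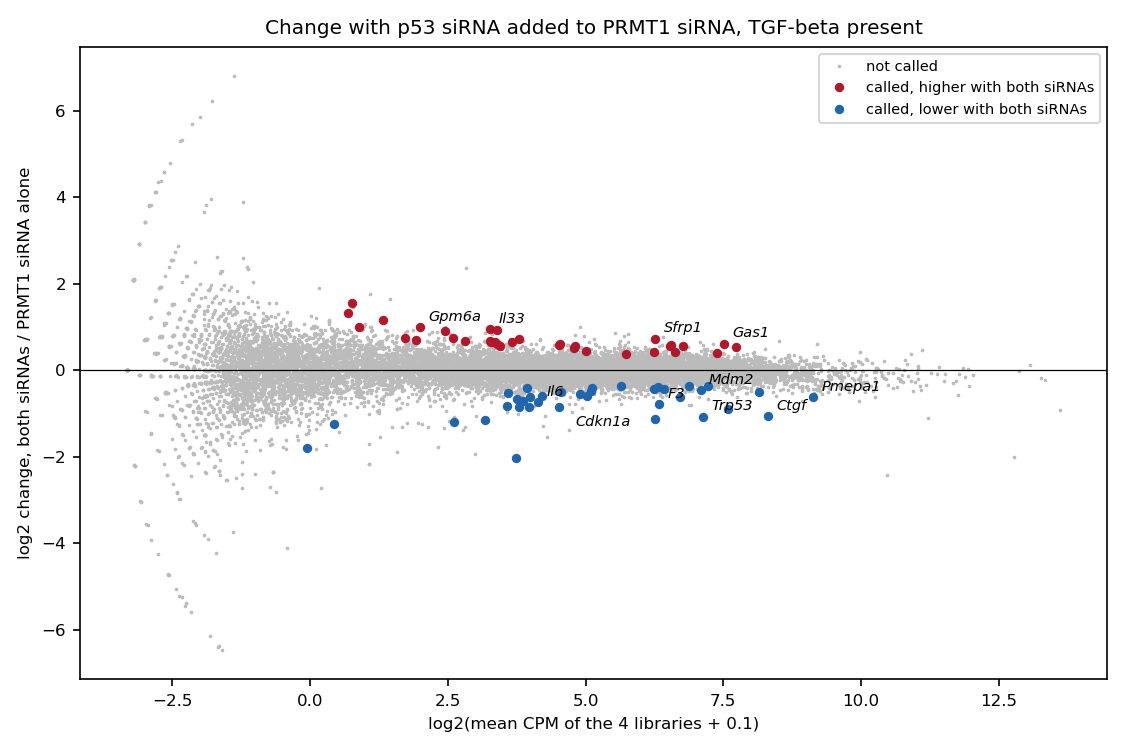
Log2 change with p53 siRNA added to PRMT1 siRNA under TGF-beta (vertical axis) against the log2 mean CPM of the 4 libraries plus 0.1 (horizontal axis), 1 point per tested gene. Red points are the 34 genes called higher and blue points the 36 called lower with both siRNAs in the fit of 16 libraries, and Cdkn1a, Trp53 and Ctgf lie at -1.14, -1.08 and -1.06.

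The targeted gene was lower, as its label says. Trp53, which encodes p53 (chromosome 11, 69580359 to 69591874, mm10), stood at 90.3 and 89.7 CPM with both siRNAs, against 192 and 187 CPM with PRMT1 siRNA alone. The groups did not overlap, as was the case for 30.7% of all tested genes in the lower direction. The mean with both siRNAs was 47.5% of the mean with PRMT1 siRNA alone (log2 change -1.08 ± 0.09, adjusted p = 0.000975). Prmt1, the other siRNA target (chromosome 7, 44975989 to 44986493), stood at 67.0 and 62.5 CPM with both siRNAs and at 73.3 and 76.9 CPM with PRMT1 siRNA alone, and the difference did not pass the test (-0.21 ± 0.16, adjusted p = 0.642). With control siRNA and TGF-beta, Prmt1 was at 174 and 171 CPM and Trp53 at 148 and 148 CPM, so Trp53 was above its control level with PRMT1 siRNA alone and below it with both. Mdm2 (chromosome 10, 117688888 to 117710759), itself a p53 target, stood at 115 and 114 CPM with both siRNAs, against 155 and 161 CPM with PRMT1 siRNA alone, and fell by 0.47 on the log2 scale (adjusted p = 0.047). Mdm4 (chromosome 1, 132959484 to 133030562) stood at 99.95 and 113 CPM with both siRNAs, against 83.2 and 81.2 CPM with PRMT1 siRNA alone. The 2 groups of Mdm4 values did not overlap, as was the case for 30.8% of all tested genes in the higher direction. The log2 change of 0.37 ± 0.22 did not pass the test with 16 libraries (adjusted p = 0.565). In the length-adjusted fit it was 0.24 (adjusted p = 0.00485). None of the 8 tested protein arginine methyltransferase genes was called in either fit, and their median log2 change was -0.07 in both.

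Cdkn1a, which encodes the cell cycle inhibitor p21 (chromosome 17, 29090979 to 29100723), was the p53 target that changed most. It stood at 47.5 and 47.7 CPM with both siRNAs, against 102 and 108 CPM with PRMT1 siRNA alone. The low pair lay well under the high pair, and the log2 change was -1.14 ± 0.07 (adjusted p = 4.35e-05). Cdkn1a was the only one of 43 called genes named in the text whose call remained in all 4 fits of 16 libraries that leave out 1 library of the comparison. With control siRNA and TGF-beta it stood at 55.5 and 55.3 CPM, close above the level with both siRNAs, and with p53 siRNA alone and TGF-beta at 22.9 and 24.7 CPM. Ccng1, which encodes cyclin G1 and recruits a phosphatase to Mdm2 (chromosome 11, 40748552 to 40755312), stood at 235 and 236 CPM with both siRNAs, against 328 and 336 CPM with PRMT1 siRNA alone (-0.50 ± 0.08, adjusted p = 0.032). It was at 251 and 241 CPM with control siRNA and TGF-beta. Btg2, an antiproliferative factor, stood at 23.1 and 25.2 CPM with both siRNAs, against 35.4 and 35.7 CPM with PRMT1 siRNA alone (-0.56 ± 0.07, adjusted p = 0.00657). Pmaip1, which encodes the death-promoting protein Noxa, stood at 11.1 and 10.7 CPM with both siRNAs, against 18.8 and 16.9 CPM with PRMT1 siRNA alone (-0.71 ± 0.12, adjusted p = 0.033). Aen, a nuclease of apoptotic DNA breakdown (chromosome 7, 78895854 to 78911210), stood at 71.7 and 73.9 CPM with both siRNAs, against 97.1 and 98.7 CPM with PRMT1 siRNA alone (-0.43 ± 0.08, adjusted p = 0.047). In all 4 of these genes the groups did not overlap, as was the case for 30.7% of all tested genes in the lower direction.

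The p53 targets were listed in 3 groups. Over all tested genes the length-adjusted fit called 5.28% higher and 5.97% lower, the shares to set beside its counts in each group. Of 16 tested targets of arrest and feedback, 4 fell and none rose with 16 libraries, at a median log2 change of -0.27 against 0.0026 over all tested genes. The 4 were Cdkn1a, Mdm2, Ccng1 and Btg2. Length-adjusted, 7 fell and 2 rose, the falls adding Zmat3, an RNA-binding regulator (-0.44), the kinase gene Plk2 (-0.26) and Gtse1, a G2 phase protein (-0.25), and the rises being Mdm4 and Ccng2, cyclin G2 (0.33). Of 17 tested targets of cell death, Pmaip1 and Aen fell and none rose with 16 libraries, and 14 of 17 were negative, at a median of -0.26. After length adjustment 9 fell and none rose, among them the death receptor gene Eda2r (-0.68), Phlda3, an Akt repressor (-0.67), the pore-forming Bax (-0.35), the apoptosis factor gene Siva1 (-0.33), Perp, a membrane effector of apoptosis (-0.29), Ei24, a membrane protein of autophagy (-0.22), and the death receptor gene Tnfrsf10b (-0.21). Of 28 tested targets of repair and metabolism, 2 fell, the receptor gene Epha2 (-0.39, adjusted p = 0.049) and the thiamine transporter gene Slc19a2 (-0.41, adjusted p = 0.0476), and none rose. Their median was -0.02. With length offsets and 15 libraries 6 fell and 4 rose, so this group moved both ways. The DNA polymerase gene Polk (-0.43), the adenylate kinase gene Ak1 (-0.37) and Gadd45a, a stress sensor (-0.30), were among the falls, and the damage recognition gene Ddb2 (0.65) was the largest rise. Neither of 2 further targets was called in either fit: with 16 libraries the log2 change of the phosphatase gene Ppm1d was 0.05 ± 0.08 (adjusted p = 0.824) and that of the glycolysis regulator gene Tigar -0.10 ± 0.07 (adjusted p = 0.609).

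Promoter sequence was examined for the same comparison. RefSeq windows (GRCm38.p6, the assembly that mm10 names) ran from 250 bases before to 50 after a gene's start. Where a gene has several starts, only the one nearest the 5′ end of the gene in the count table was used. Both strands were searched for the consensus of the p53 half-site, which p53 binds in pairs. A half-site was present in 8 of 22 promoters of fallen genes that the table held (36.4%), in 2 of 25 of risen genes (8.0%) and in 660 of 9933 of all tested genes (6.64%). The 8 included Cdkn1a, with 2 matches, Mdm2, Ccng1, Aen, Trp53 itself and Il6. The windows of the 4 called members of the p53 target lists that held a match are shown 5′ to 3′, in capitals where the half-site matched.
Cdkn1a promoter, chr17:29090729-29091028, plus strand: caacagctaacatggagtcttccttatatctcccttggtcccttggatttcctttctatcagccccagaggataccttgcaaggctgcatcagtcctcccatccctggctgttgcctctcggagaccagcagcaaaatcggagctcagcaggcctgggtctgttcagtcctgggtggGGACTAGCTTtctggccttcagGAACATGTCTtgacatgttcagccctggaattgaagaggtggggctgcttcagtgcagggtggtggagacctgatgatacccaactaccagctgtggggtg
Mdm2 promoter, chr10:117710709-117711008, minus strand: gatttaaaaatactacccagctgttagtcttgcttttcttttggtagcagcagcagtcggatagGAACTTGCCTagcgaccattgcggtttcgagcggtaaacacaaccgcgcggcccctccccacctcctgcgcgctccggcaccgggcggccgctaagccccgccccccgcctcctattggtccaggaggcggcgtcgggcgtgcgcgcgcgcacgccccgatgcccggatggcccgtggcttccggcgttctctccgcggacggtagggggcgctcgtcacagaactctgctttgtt
Ccng1 promoter, chr11:40755237-40755536, minus strand: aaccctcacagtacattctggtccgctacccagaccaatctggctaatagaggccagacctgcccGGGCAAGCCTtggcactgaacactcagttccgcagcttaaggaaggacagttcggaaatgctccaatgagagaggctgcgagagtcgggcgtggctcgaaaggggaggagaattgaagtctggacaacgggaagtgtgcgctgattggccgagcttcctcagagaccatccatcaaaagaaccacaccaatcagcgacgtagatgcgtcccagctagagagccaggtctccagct
Aen promoter, chr7:78895677-78895976, plus strand: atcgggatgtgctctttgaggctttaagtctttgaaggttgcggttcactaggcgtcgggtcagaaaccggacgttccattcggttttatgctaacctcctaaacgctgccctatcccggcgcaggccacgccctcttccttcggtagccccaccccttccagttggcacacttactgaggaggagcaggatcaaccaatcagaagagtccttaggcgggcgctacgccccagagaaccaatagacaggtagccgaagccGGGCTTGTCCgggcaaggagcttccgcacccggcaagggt
The matches lay at -73 to -64 and -51 to -42 from the start of Cdkn1a, at -186 to -177 of Mdm2, at -185 to -176 of Ccng1 and at 11 to 20 of Aen. The AP-1 motif TGANTCA was in 3 of 22 promoters of fallen genes, 1 of 25 of risen genes and 4.89% of all. The TEAD motif GGAATG was in 2, 3 and 11.9%, and the GC-rich SMAD motif GGCGCC in 1, 8 and 22.05%. The SMAD palindrome GTCTAGAC and the CArG box were in none of the 22 and none of the 25, and in 0.211% and 1.24% of all. No half-site match in a fallen gene overlapped a match of the other motifs, and a match says only that the letters are there.

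**Figure D2:**
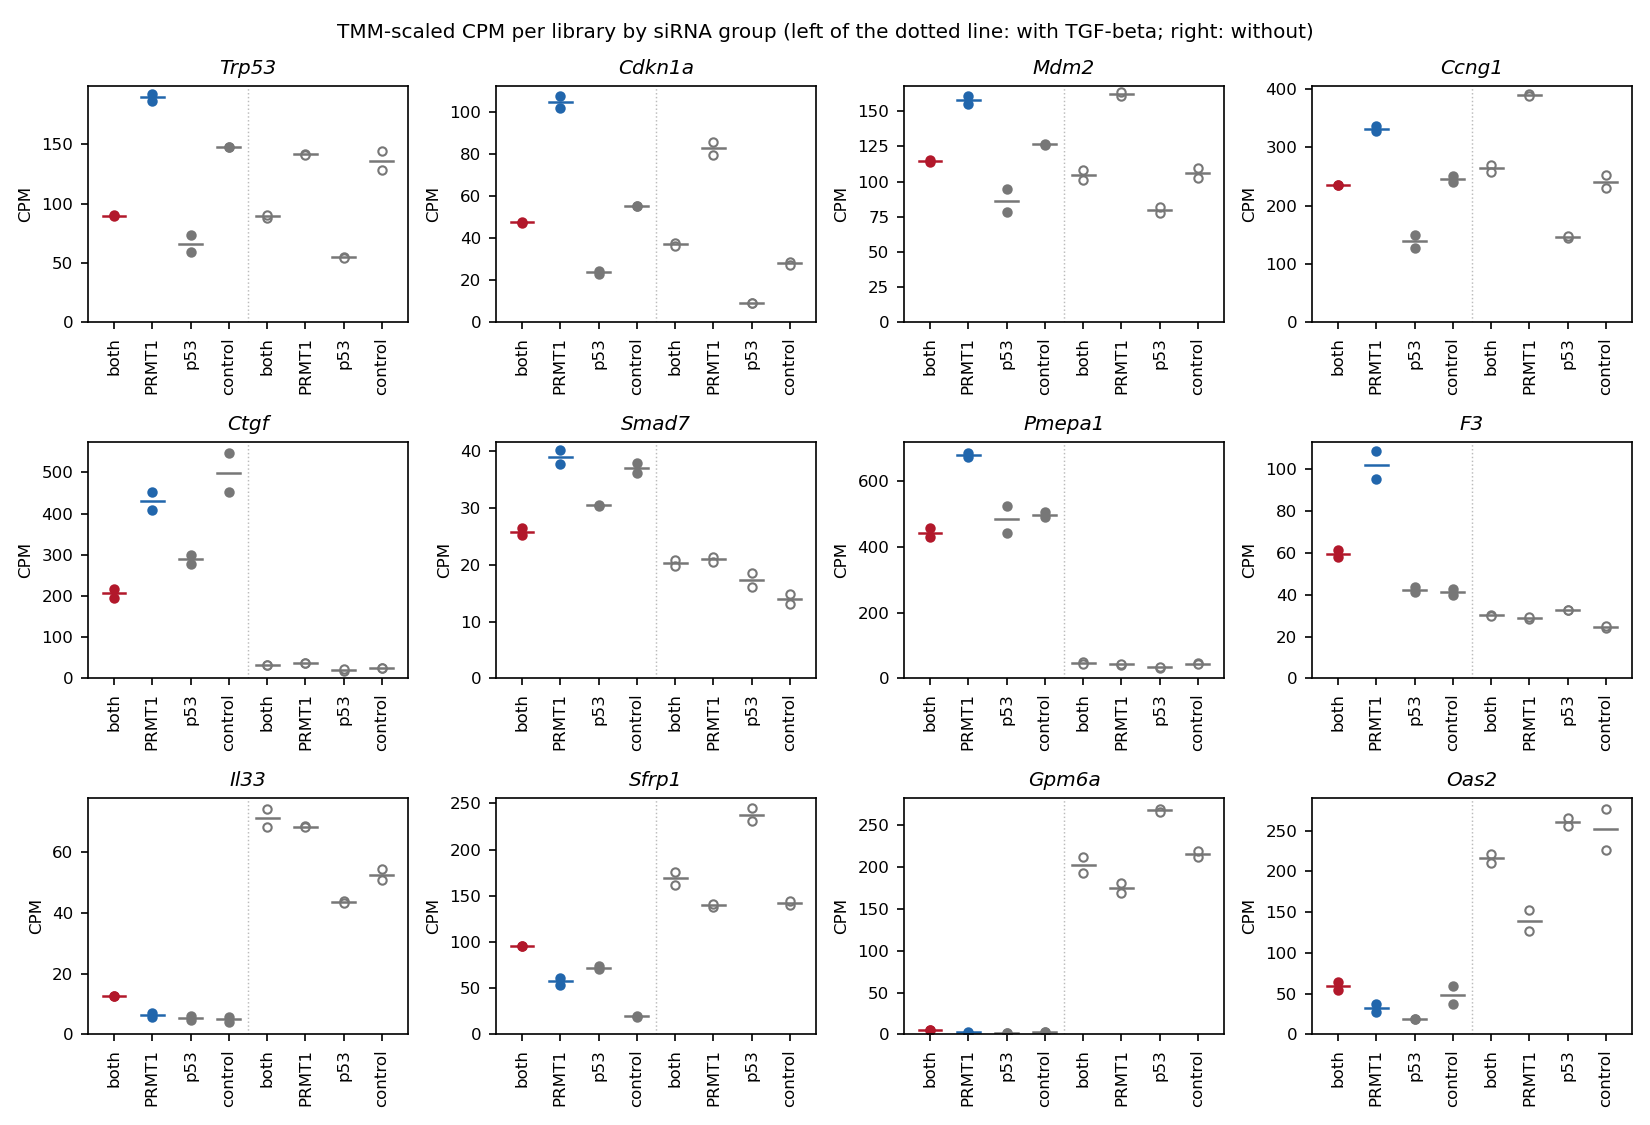
TMM-scaled CPM of 12 genes in each library (points) with the group mean (line), by siRNA group, with TGF-beta left of the dotted line and without it to the right (open points). Red marks both siRNAs with TGF-beta and blue PRMT1 siRNA with TGF-beta: the red points of Trp53, Cdkn1a, Ctgf and F3 lie below the blue ones, and those of Il33, Sfrp1 and Gpm6a above.

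Early targets and feedback genes of TGF-beta formed the other group with several falls. Ctgf, a matrix-associated growth factor (chromosome 10, 24595442 to 24598684), stood at 217 and 196 CPM with both siRNAs, against 452 and 408 CPM with PRMT1 siRNA alone (-1.06 ± 0.10, adjusted p = 0.00157). With control siRNA and TGF-beta it stood at 547 and 451 CPM, and with p53 siRNA alone and TGF-beta at 277 and 300 CPM. Both groups with p53 siRNA were thus below both groups without it. Pmepa1, a feedback inhibitor of SMAD signalling (chromosome 2, 173224458 to 173276534), stood at 456 and 429 CPM with both siRNAs, against 673 and 685 CPM with PRMT1 siRNA alone (-0.62 ± 0.09, adjusted p = 0.0219). With control siRNA and TGF-beta Pmepa1 stood at 505 and 490 CPM, between the 2 groups compared. Smad7, an inhibitory SMAD, fell by 0.59 on the log2 scale (adjusted p = 0.0204) and Junb, an AP-1 subunit, by 0.61 (adjusted p = 0.0452). Of the 25 tested genes of this list, 6 fell and 1 rose with 16 libraries and 19 were negative, at a median of -0.18 against 0.0026 over all tested genes. Another fall and the rise lie outside the rule for named genes and were named after their values were seen: Fst, the activin antagonist follistatin (-0.42, adjusted p = 0.0476), and Tgfbi, a secreted adhesion protein, at 111 and 109.8 CPM with both siRNAs, against 70.3 and 78.9 CPM with PRMT1 siRNA alone (0.56, adjusted p = 0.032). In the length-adjusted fit 16 of the 25 fell and 2 rose, where 5.97% of all tested genes were called lower and 5.28% higher. The median was -0.22 there, against 0.0033 over all tested genes.

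The largest falls at a mean of at least 5 CPM held secreted and clotting factors beside these. Fam212b, a kinase inhibitor gene also named Inka2, stood at 4.11 and 3.23 CPM with both siRNAs, against 8.29 and 8.45 CPM with PRMT1 siRNA alone (-1.19 ± 0.15, adjusted p = 0.00837). Wisp2, a matricellular protein of the family of Ctgf, stood at 5.83 and 5.28 CPM with both siRNAs, against 13.1 and 11.4 CPM with PRMT1 siRNA alone (-1.15 ± 0.19, adjusted p = 0.032). F3, tissue factor, which starts clotting (chromosome 3, 121723537 to 121735049), stood at 61.1 and 57.8 CPM with both siRNAs, against 109 and 95.3 CPM with PRMT1 siRNA alone (-0.78 ± 0.08, adjusted p = 0.00157). With control siRNA and with p53 siRNA alone, TGF-beta present, F3 was lower still, at 39.8 to 43.4 CPM. Il6, an inflammatory cytokine, stood at 13.9 and 12.6 CPM with both siRNAs, against 22.5 and 21.3 CPM with PRMT1 siRNA alone (-0.73 ± 0.11, adjusted p = 0.0241). Others were the osteoprotegerin gene Tnfrsf11b (-0.86), Hbegf, a ligand of the EGF receptor (-0.85), and the kinase gene Dyrk3 (-0.83), with adjusted p from 0.0219 to 0.0241. Pdgfb, the platelet-derived growth factor B chain, also fell (-0.61, adjusted p = 0.033).

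The largest rises at a mean of at least 5 CPM held a cytokine, a Wnt antagonist and several membrane proteins. Il33, an alarmin cytokine (chromosome 19, 29925114 to 29960719), stood at 12.5 and 12.6 CPM with both siRNAs, against 5.72 and 7.23 CPM with PRMT1 siRNA alone (0.95 ± 0.14, adjusted p = 0.0241). Steap4, a metalloreductase, stood at 13.5 and 13.8 CPM with both siRNAs, against 6.91 and 7.48 CPM with PRMT1 siRNA alone (0.92 ± 0.10, adjusted p = 0.00421). Sfrp1, a secreted Wnt antagonist (chromosome 8, 23411502 to 23449633), stood at 95.3 and 95.9 CPM with both siRNAs, against 53.8 and 61.4 CPM with PRMT1 siRNA alone (0.73 ± 0.08, adjusted p = 0.00416). With TGF-beta, Sfrp1 was at 73.8 and 70.5 CPM with p53 siRNA alone and at 18.7 and 20.5 CPM with control siRNA. Gas1, a membrane protein that slows growth, stood at 221 and 222 CPM with both siRNAs, against 129 and 160.5 CPM with PRMT1 siRNA alone (0.61 ± 0.10, adjusted p = 0.032). The other 8 were the oncogenic transcription factor gene Mycn (0.73), Tmem108, a membrane protein (0.73), the RAS effector gene Rassf2 (0.68), the leukotriene receptor gene Cysltr1 (0.66), the chromatin-binding Jade2 (0.66), the zinc finger gene Zfp810 (0.65), the synaptic vesicle gene Sv2a (0.65) and the mitochondrial adenylate kinase gene Ak4 (0.62), with adjusted p from 0.00664 to 0.0415. These 12 genes were picked among genes whose groups did not overlap, which held for 30.8% of all tested genes in the higher direction.

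With 16 libraries, the 4 calls in the epicardial and mesothelial list and the collagen and matrix list were all rises. The length-adjusted fit, which called 5.28% of all tested genes higher and 5.97% lower, gave calls both ways in both lists. Of 24 tested epicardial and mesothelial genes 2 rose and none fell with 16 libraries, at a median of 0.13, where 0.219% of all tested genes were called higher. Gpm6a, a membrane glycoprotein of mesothelium (chromosome 8, 54954728 to 55060878), stood at 5.11 and 5.31 CPM with both siRNAs, against 2.33 and 2.85 CPM with PRMT1 siRNA alone (1.002 ± 0.12, adjusted p = 0.00664). Both groups were far under the 168 to 269 CPM of the 8 libraries without TGF-beta. C3, complement component 3, stood at 109 and 116 CPM with both siRNAs, against 70.5 and 79.7 CPM with PRMT1 siRNA alone (0.58 ± 0.11, adjusted p = 0.047). Length-adjusted, 8 rose, among them Lrrn4 (0.59), the transcription factor gene Gata6 (0.29) and Wt1, the Wilms tumour factor of epicardium (0.18). The 2 falls, named after their values were seen, were those of Msln (-0.39) and Upk1b (-0.25), so the list moved both ways in that fit. Among 30 tested collagen and matrix genes the collagen VI chains Col6a1 (0.40, adjusted p = 0.0425) and Col6a2 (0.55, adjusted p = 0.032) rose and none fell. The length-adjusted fit split this list evenly, with 7 higher and 7 lower, Col3a1, the type III collagen chain (0.37), on the one side and Col18a1, a basement membrane collagen (-0.47), on the other.

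None of 21 tested smooth muscle contractile genes was called with 16 libraries, though 17 were negative, at a median of -0.21. Acta2, smooth muscle alpha-actin, stood at 1666 and 1595 CPM with both siRNAs, against 2303 and 2283 CPM with PRMT1 siRNA alone (-0.49 ± 0.19, adjusted p = 0.401). Tagln, transgelin, stood at 536 and 487 CPM with both siRNAs, against 742 and 748 CPM with PRMT1 siRNA alone (-0.54 ± 0.19, adjusted p = 0.331). Neither gene's groups overlapped, which held for 30.7% of all tested genes in the lower direction. After length adjustment 8 of the 21 fell, Acta2 (-0.43), Tagln (-0.43), the tropomyosin gene Tpm1 (-0.34), the gamma-actin gene Actg2 (-0.79) and Mkl1, a coactivator of muscle genes (-0.25), among them, and 1 rose. Of 26 tested mesenchymal genes none was called with 16 libraries, and the length-adjusted fit gave 5 higher and 6 lower. That fit called 5.28% of all tested genes higher and 5.97% lower, the shares to set beside its counts in this paragraph. The EMT transcription factor gene Snai1 (-0.49) and Foxc2, a forkhead factor (-0.83), fell there with the fibronectin receptor gene Itga5 (-0.29), and Snai2, the paralogue of Snai1 (0.40), Prrx1, a homeobox factor (0.43), the PDGF receptor gene Pdgfra (0.54) and Postn, the matrix protein periostin (0.18), rose. Fn1, fibronectin, was called in neither fit (0.12 ± 0.24, adjusted p = 0.855, with 16 libraries). Snai1 and Snai2 thus moved in opposite directions in the length-adjusted fit, and neither was called with 16 libraries (adjusted p = 0.0833 and 0.295).

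Genes of S phase, G2 and mitosis gave no call with 16 libraries. Of 31 tested genes of G2 and mitosis 24 were positive and the median was 0.11. With length offsets and 15 libraries 11 rose and none fell, by 0.17 to 0.33. The rises were 0.24 for the checkpoint kinase gene Bub1b, 0.22 for Top2a, the mitotic topoisomerase, 0.20 for the spindle kinase gene Ttk and 0.17 for Nusap1, a spindle protein. The largest ones, named after their values were seen, were those of Cenpf, a kinetochore protein (0.33, adjusted p = 0.00155), and the proliferation marker Mki67 (0.29, adjusted p = 0.00214). Of 30 tested S phase genes, 1 rose and 3 fell in the length-adjusted fit, which called 5.28% of all tested genes higher and 5.97% lower. Those shares also belong beside the other length-adjusted counts in this paragraph. Among 26 tested hypoxia and glycolysis genes, Pdk1, which restrains pyruvate entry to mitochondria, rose (0.59, adjusted p = 0.032). The length-adjusted fit gave 7 higher and none lower, with Egln3, an oxygen-sensing hydroxylase (0.63), Bnip3, a mitophagy receptor (0.59), and P4ha1, a collagen hydroxylase (0.19). Among 22 tested cytokine and chemokine genes, Il33 and the chemokine gene Cxcl1 (0.61, adjusted p = 0.032) rose and Il6 fell. In the length-adjusted fit Ptgs2, the inducible cyclooxygenase, also fell (-0.77, adjusted p = 1.57e-07).

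Signalling lists moved both ways. Of 31 tested growth factor ligands and receptors, Pdgfb and Hbegf fell and none rose. Length-adjusted, 6 fell and 5 rose, with neuregulin, Nrg1 (-0.63), on the one side and Fgf7, a fibroblast growth factor (0.50), on the other. Of 24 tested Wnt and Notch genes, Sfrp1 rose and none fell. After length adjustment 6 fell, with the ligand gene Wnt11 (-0.80) and the Notch target gene Hes1 (-0.50), and 1 rose. Of 11 tested BMP-responsive genes and BMP antagonists none was called with 16 libraries. With length offsets and 15 libraries 3 fell, with Id3, an inhibitor of differentiation (-0.70), and 2 rose, the BMP antagonist gremlin, Grem1 (0.31), and the BMP-binding Bmper (0.27). Of 25 tested immediate early and AP-1 genes, Junb fell and none rose. The length-adjusted fit gave 7 lower and 2 higher, with the zinc finger factor Egr1 (0.44) among the rises. Of 30 tested extracellular protease genes none was called with 16 libraries. The length-adjusted fit gave 5 higher, with Adamts5 (0.41), which cleaves aggrecan, and 4 lower, with the urokinase receptor gene Plaur (-0.48) and the membrane metalloprotease gene Mmp14 (-0.22). Epithelial junction genes (17 tested), integrins and laminins (23), MHC class I genes (15), cholesterol synthesis genes (24) and unfolded protein stress genes (28) had no call with 16 libraries. The length-adjusted fit gave them, in that order, 0, 1, 3, 1 and 1 higher and 3, 2, 0, 0 and 2 lower. Over all tested genes that fit called 5.28% higher and 5.97% lower, the shares to set beside each length-adjusted count in this paragraph. Of 7 tested CDK inhibitors Cdkn1a alone was called, in both fits. Of 20 tested p53 regulators Trp53 and Mdm2 fell with 16 libraries.

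**Figure D3:**
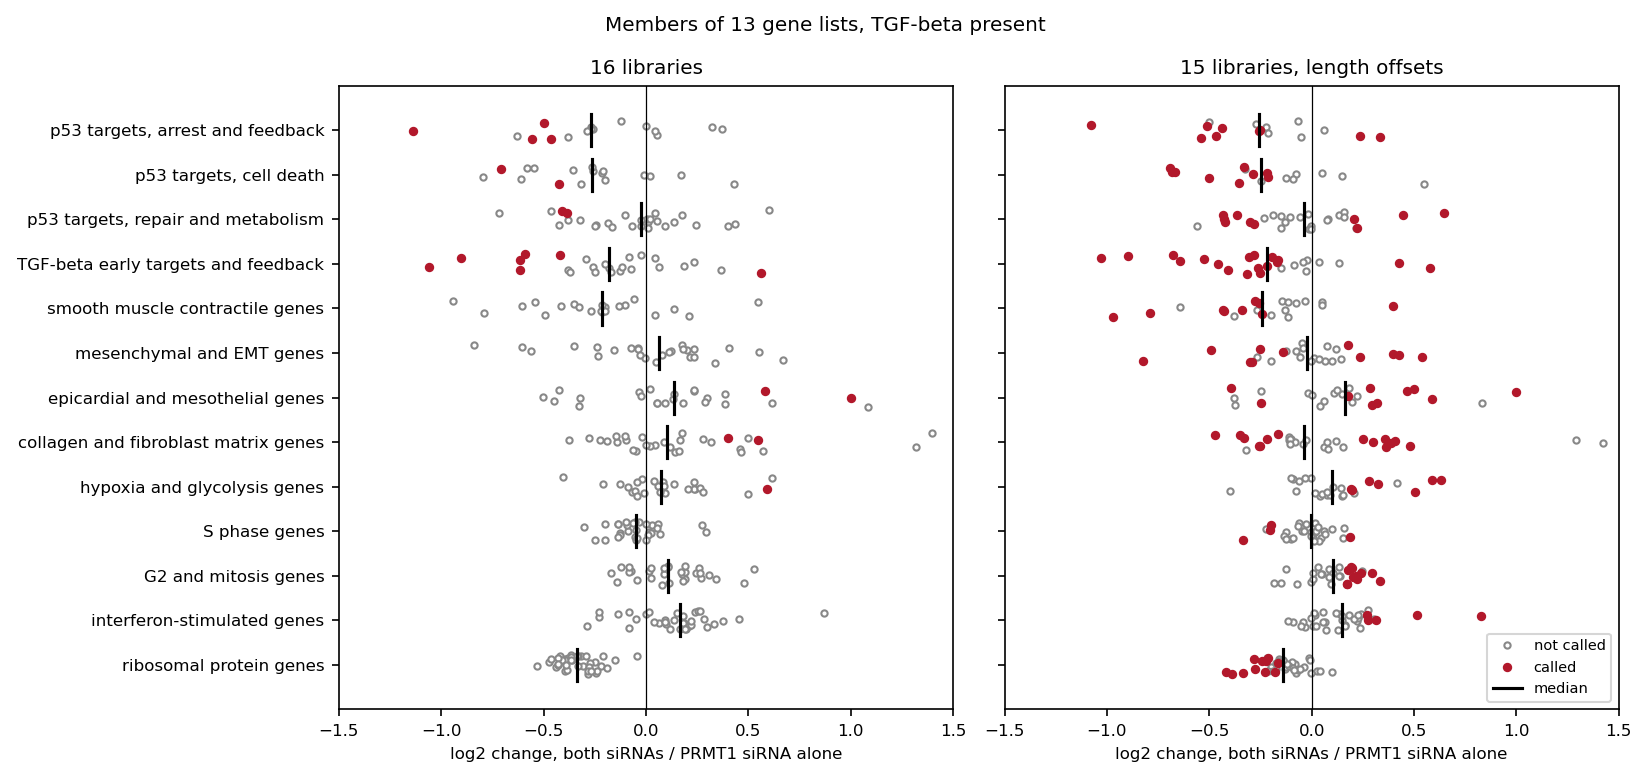
Log2 change with p53 siRNA added to PRMT1 siRNA under TGF-beta (horizontal axis) for the tested members of 13 gene lists, from the fit of 16 libraries (left) and the length-adjusted fit of 15 libraries (right). Filled red points were called, open points were not, and the black bar is the list's median: the arrest and death targets of p53 and the TGF-beta targets have medians of -0.27 to -0.18 on the left, and the ribosomal protein genes lie at -0.34 on the left and -0.14 on the right.

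The changes moved with transcript length. Across the 14963 tested genes with a known length, Spearman's rho between the log2 change and length was 0.397, a description across genes that share libraries. The median log2 change ran from -0.26 in the shortest of 10 equal bins (median length 736 bases) to 0.18 in the longest (7984.5 bases). With the libraries set against each other by replicate number, the shortest bin gave -0.21 and -0.31 and the longest 0.10 and 0.24, so both pairs of libraries showed the trend. The 2 libraries with both siRNAs also differed from each other, by -0.10 in the shortest bin and 0.14 in the longest, whereas the 2 with PRMT1 siRNA alone differed by 0.02 or less there. With length offsets rho was 0.013. The ribosomal protein genes, which are short, were negative in 39 of 39 cases, at a median of -0.34, and none was called with 16 libraries. Rpl38, of the large subunit, stood at 209 and 188 CPM with both siRNAs, against 289 and 285 CPM with PRMT1 siRNA alone. The list's median with length offsets and 16 libraries was -0.15 and again none was called. In the length-adjusted fit of 15 libraries it was -0.14 and 11 of 39 fell, Rpl38 (-0.23) and Rps16, of the small subunit (-0.28), among them. That fit called 5.97% of all tested genes lower. From the shortest bin to the longest, 1, 0, 0, 1, 6, 6, 4, 7, 7 and 2 genes were called higher and 2, 1, 4, 3, 7, 9, 4, 3, 3 and 0 were called lower with 16 libraries. The median length was 3882 bases in the risen genes and 2977.5 in the fallen, against 2928 over all tested genes, so the risen genes were longer at the median. The part of transcript length in genes called only without offsets was not tested.

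**Figure D4:**
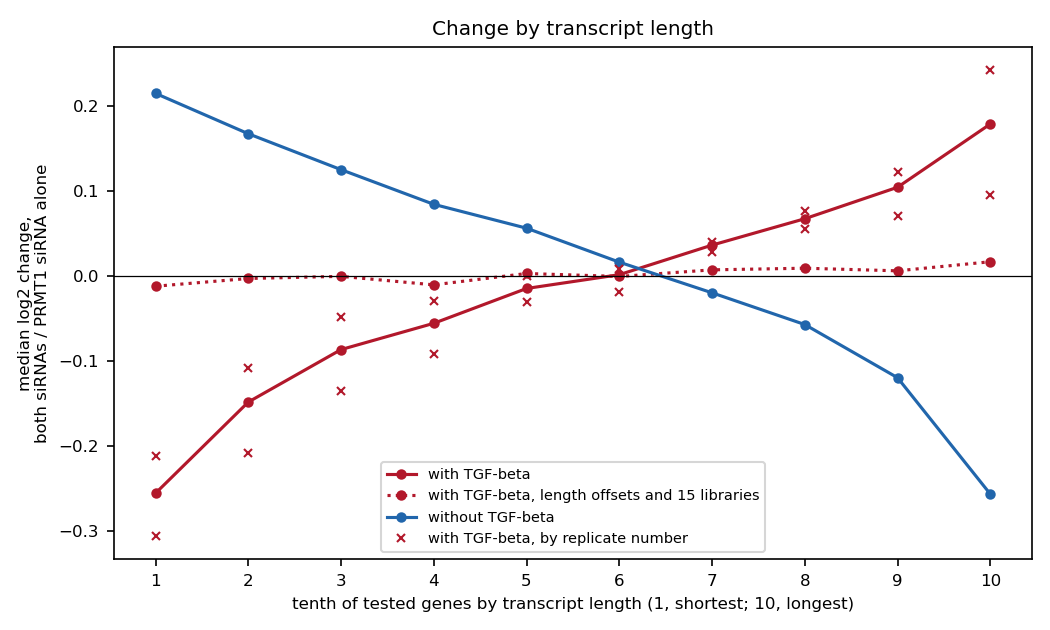
Median log2 change of both siRNAs over PRMT1 siRNA alone (vertical axis) in 10 equal bins of the tested genes ranked by transcript length (horizontal axis), with TGF-beta (red), with TGF-beta after length offsets in 15 libraries (red dotted) and without TGF-beta (blue). Crosses give the 2 replicate numbers with TGF-beta: the trend climbs from -0.26 to 0.18 with TGF-beta, descends from 0.22 to -0.26 without it, and is nearly flat after the offsets.

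The same siRNA was added to PRMT1 siRNA in cells without TGF-beta, in 4 libraries that share none with the comparison above. There the trend with length had the opposite sign (rho -0.407). Of the 34 genes that rose with TGF-beta, 31 had a positive log2 change without it (91.2%), 2 of them called. Of the 36 that fell, 28 were negative (77.8%), 12 of them called. Over all 15494 tested genes 40.9% had the same sign in both settings. Of all tested genes 117 were called without TGF-beta with the same sign as under it, and 17 with the opposite sign. The shares of the same sign were 94.1%, 75% and 49.8% with the length-adjusted effects without TGF-beta. The effects with TGF-beta stayed those of 16 libraries. Cdkn1a without TGF-beta stood at 37.6 and 36.6 CPM with both siRNAs, against 86.1 and 79.5 CPM with PRMT1 siRNA alone. The effect with TGF-beta minus the effect without it was 0.02 ± 0.10, adjusted p = 0.919 for Cdkn1a, 0.17 ± 0.12, adjusted p = 0.467 for Mdm2, 0.06 ± 0.11, adjusted p = 0.757 for Ccng1 and 0.15 ± 0.17, adjusted p = 0.63 for Pmaip1, on the log2 scale. None of the 61 tested members of the 3 p53 target lists was called for this difference with 16 libraries. The length-adjusted fit called 7 of them, 3 with a higher effect under TGF-beta and 4 with a lower one. Over all tested genes it called 5.58% higher and 8.2% lower, shares that these counts did not exceed. The 3 were the decoy receptor gene Tnfrsf23 (0.73), the polymerase gene Rev3l (0.39) and the spindle gene Ckap2 (0.28). The 4 were the death gene Bcl2l11 (-0.50), the peptide transporter gene Tap1 (-0.49), the collagen receptor gene Ddr1 (-0.44) and Btg2 (-0.25). Trp53 itself was at 88.1 and 90.7 CPM with both siRNAs, against 142 and 141 CPM with PRMT1 siRNA alone in the cells without TGF-beta.

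Of the 25 TGF-beta targets, 17 had a lower effect with TGF-beta than without it, at a median difference of -0.20 against -0.01 over all tested genes, and none was called with 16 libraries. Ctgf without TGF-beta stood at 33.1 and 32.1 CPM with both siRNAs, against 37.0 and 37.4 CPM with PRMT1 siRNA alone, and its effect with TGF-beta minus that without was -0.87 ± 0.15, adjusted p = 0.123. With 16 libraries 6 genes were called for a difference between the effects with and without TGF-beta, 3 higher (0.0194%) and 3 lower (0.0194%), and 2081 had an unadjusted p under 0.05. The effect was higher with TGF-beta for Adamts5 (1.30), Fgf7 (1.05) and Cxcl1 (1.03), and lower for Adamts16, another secreted protease (-1.17), the collagen gene Col8a2 (-0.93) and F3 (-0.84), with adjusted p of 0.0289 to 0.0357. In cells without TGF-beta F3 stood at 30.1 and 30.0 CPM with both siRNAs, against 28.2 and 29.3 CPM with PRMT1 siRNA alone, and Cxcl1 at 57.6 and 59.2 CPM with both siRNAs, against 73.4 and 83.1 CPM with PRMT1 siRNA alone. Cxcl1 was thus higher with both siRNAs under TGF-beta and lower with both siRNAs in its absence. Leaving out replicate 2 of PRMT1 siRNA with TGF-beta left 1 call, of a gene outside these 6, and leaving out any other of the 8 libraries left 0 by edgeR, with 910 to 2098 genes at an unadjusted p under 0.05. In the length-adjusted fit 864 genes were called higher (5.58%) and 1271 lower (8.2%), all 6 genes among them, and of the 25 TGF-beta targets 13 were lower with TGF-beta and 1 higher, at a median difference of -0.26. In that fit 16 of the 31 G2 and mitosis genes were higher and none lower, at a median of 0.24. Of the 35 interferon-stimulated genes 15 were lower and none higher there, at a median of -0.34.

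p53 siRNA was also added to control siRNA in cells with TGF-beta, again in 4 libraries that the comparison does not share. Of the 34 genes that rose on PRMT1 siRNA, 26 were positive on control siRNA, 17 of them called, and 4 were called lower there. Of the 36 that fell, 30 were negative, 19 of them called, and none was called higher there. Over all 15494 tested genes 36.1% had the same sign in both. Of all tested genes 473 were called on control siRNA with the same sign as on PRMT1 siRNA, and 335 with the opposite sign. With the length-adjusted effects on control siRNA, 25 of the risen genes were positive and 32 of the fallen genes negative. Over all tested genes the share of the same sign was then 56.6%. The effects on PRMT1 siRNA stayed those of 16 libraries. A difference between the 2 effects was called for 118 genes, 70 higher (0.452%) and 48 lower (0.31%) on PRMT1 siRNA, and for 588 in the length-adjusted fit, 384 higher (2.48%) and 204 lower (1.32%). For p53 siRNA with TGF-beta, the count was 404 when replicate 2 was left out and 8433 when replicate 1 was. It was 52 and 27 without replicates 1 and 2 of control siRNA with TGF-beta, 22 and 32 without those of PRMT1 siRNA with TGF-beta, and 19 and 15 without those of both siRNAs with TGF-beta.

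Interferon-stimulated genes were among those whose effects differed. On PRMT1 siRNA, p53 siRNA gave no call among the 35 genes with 16 libraries, 27 of them positive, at a median of 0.16. In the length-adjusted fit 5 of the 35 rose and none fell: Oas2 (0.83), the antiviral GTPase gene Mx2 (0.27), Irf7, an interferon regulatory factor (0.31), Stat2, which transmits the interferon signal (0.27), and Zbp1, a nucleic acid sensor (0.52). Mx2, Irf7 and Zbp1 were named after their values were seen. Over all tested genes that fit called 5.28% higher and 5.97% lower on PRMT1 siRNA. On control siRNA 13 fell and none rose with 16 libraries, at a median of -0.37. Of all 15494 tested genes 371 fell and 437 rose in that comparison. In the length-adjusted fit the group with p53 siRNA alone and TGF-beta has 1 library, whose spread is taken from the remaining groups. With 16 libraries the difference was called higher for 7 and lower for none, at a median of 0.53 against -0.02 over all tested genes. After length adjustment it was called higher for 26 of the 35 and lower for none, at a median of 0.62 against 0.01. Oas2, an antiviral nucleotide synthase (chromosome 5, 120730333 to 120749854), stood at 55.2 and 64.2 CPM with both siRNAs, against 28.0 and 37.2 CPM with PRMT1 siRNA alone, all with TGF-beta. It stood at 18.8 and 18.4 CPM with p53 siRNA, against 37.7 and 59.97 CPM with control siRNA. The effect was thus upward in value on PRMT1 siRNA and downward on control siRNA, and the difference was 2.26 ± 0.29, adjusted p = 0.00873. Oas3, of the same family, gave 1.69, adjusted p = 0.0147, Iigp1, an interferon-induced GTPase, 1.48, adjusted p = 0.0194, and Herc6, a ubiquitin ligase, 0.77, adjusted p = 0.0399. In the other direction, Saa3, a serum amyloid, stood at 17.5 and 16.4 CPM with both siRNAs, against 24.2 and 29.1 CPM with PRMT1 siRNA alone. On control siRNA it stood at 4.22 and 7.69 CPM with p53 siRNA, against 0.545 and 0.296 CPM without, and the difference between the effects was -4.50 ± 0.46, adjusted p = 0.00267. The phosphatase gene Alpl gave -2.20, adjusted p = 0.0108 and the imprinted RNA H19 -1.86, adjusted p = 0.00155.

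**Figure D5:**
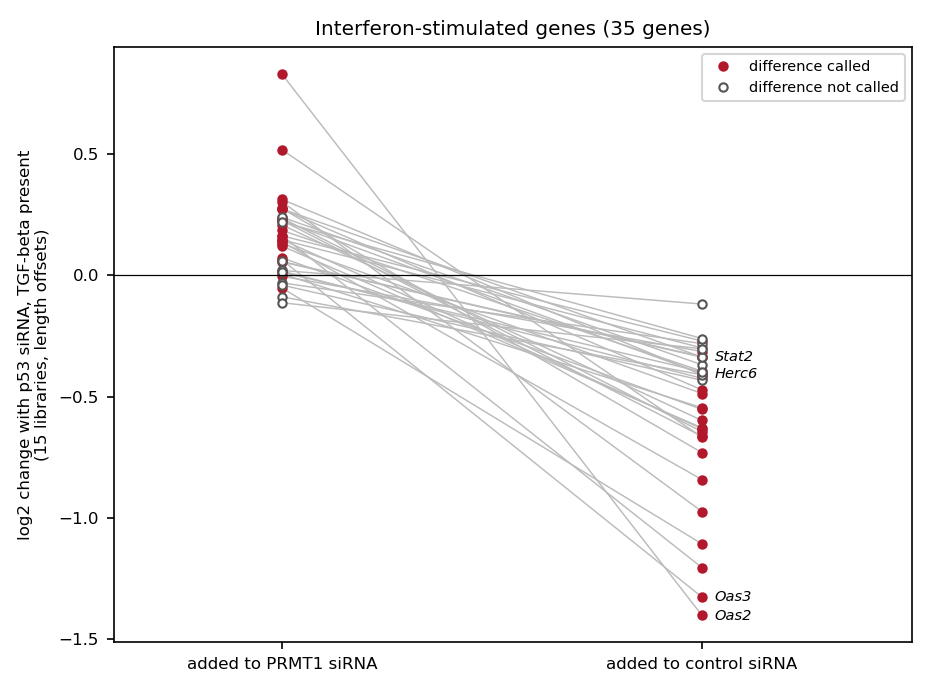
Log2 change with p53 siRNA in TGF-beta-treated cells (vertical axis, length-adjusted fit of 15 libraries) for 35 interferon-stimulated genes, when the siRNA was added to PRMT1 siRNA (left) and to control siRNA (right), with a line per gene. Filled points are the 26 genes whose difference was called: the right-hand values lie below the left-hand ones in all 35.

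Markers of other cell types were low. The summed level of 8 endothelial markers was 8.47 and 8.29 CPM with both siRNAs, against 8.09 and 7.79 CPM with PRMT1 siRNA alone, with Tie1 and Cldn5 at 0. That of 8 cardiomyocyte markers was 0.894 and 0.942 CPM with both siRNAs, against 1.14 and 1.01 CPM with PRMT1 siRNA alone, with Myh6 and Tnni3 at 0. That of 8 haematopoietic markers was 1.79 and 1.85 CPM with both siRNAs, against 3.0 and 2.23 CPM with PRMT1 siRNA alone, with Cd3e, Hbb-bs and Itgam among those at 0. The summed level of the 25 epicardial and mesothelial genes was 926 and 931 CPM with both siRNAs, against 796 and 835 CPM with PRMT1 siRNA alone, with Dmkn at 0.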

How the data were processed

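RNA was sequenced from 16 MEC1 libraries in 8 groups of 2. The authors deposited 1 table of expected counts for 46348 genes, and the submitters' processing notes name TopHat2, Partek and mm10. Versions, annotation and use of strand are not given in the sources used here, so reads of overlapping genes on opposite strands may be mixed. Of the nonzero deposited counts 60.0% were within 0.01 of a whole number, and all were rounded to whole counts before testing. Totals were 19617874 to 30759317 per library. The members and gene lists were chosen with earlier results of these data known.

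edgeR 4.0.16 (R 4.3.3) was run with TMM factors, its filter on low expression (15494 genes kept) and a quasi-likelihood F test, with 1 mean per group over all 16 libraries. Standard errors are the absolute log2 change over the square root of F, and p-values were adjusted by Benjamini-Hochberg over all genes tested. The length-adjusted fit used offsets from a lowess curve (span 0.3) of each library's log2 CPM deviation against the log2 length of the longest GENCODE vM21 transcript, and left out replicate 2 of p53 siRNA with TGF-beta. Lengths were matched for 14963 tested genes. Effects were compared between settings as interaction terms of the same fit. Alternatives were RLE factors, DESeq2 1.42.0, limma 3.58.1 with voom quality weights, no filter, fewer libraries, length offsets, the replicate number as a block and leaving out each library. The procedure was tested on simulated data.

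Named genes were Trp53, Prmt1, Mdm2, Mdm4 and Cdkn1a, the 12 largest rises and 12 largest falls called in both fits at a mean of at least 5 CPM without overlap, from each list the members of lowest adjusted p (at most 4), any p53 target, the 3 largest interactions in each direction, and Acta2, Tagln, Snai1, Snai2, Wt1, Fn1 and Postn. Ribosomal RNA, unnamed genes and genes with near copies were left out. Some genes that the rule covers are not reported here. No pair of libraries in a group agreed within sampling noise: the smallest chi-square of a pair per degree of freedom was 6.56. Intervals of counting error were not used, and no column of the table went unmapped.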

Additional observations from a re-analysis of the deposited data

Results flagged for a closer look

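The effect of p53 siRNA on PRMT1 siRNA differed between cells with and without TGF-beta, by an interaction term past the threshold, for 6 genes named in the report. The effect with TGF-beta minus the effect without it was 1.30 for Adamts5, 1.05 for Fgf7, 1.03 for Cxcl1, -0.84 for F3, -0.93 for Col8a2 and -1.17 for Adamts16, with adjusted p of up to 0.0357. Adamts5 stood at 185 and 198 CPM with both siRNAs, against 119 and 133 CPM with PRMT1 siRNA alone with TGF-beta. Without TGF-beta it stood at 128 and 129.8 CPM with both siRNAs, against 219 and 198 CPM with PRMT1 siRNA alone. Fgf7 stood at 27.4 and 27.3 CPM with both siRNAs, against 18.2 and 20.9 CPM with PRMT1 siRNA alone with TGF-beta. Without it Fgf7 stood at 26.4 and 25.4 CPM with both siRNAs, against 39.6 and 37.0 CPM with PRMT1 siRNA alone, so both genes were higher with both siRNAs under TGF-beta and lower with both siRNAs in its absence. Col8a2 stood at 168 and 166 CPM with both siRNAs, against 152 and 167 CPM with PRMT1 siRNA alone with TGF-beta. Without it Col8a2 stood at 26.1 and 28.2 CPM with both siRNAs, against 13.5 and 13.7 CPM with PRMT1 siRNA alone, where the groups did not overlap. All 6 were also called in the same direction in the length-adjusted fit.

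The effect of p53 siRNA in TGF-beta-treated cells differed between PRMT1 siRNA and control siRNA for 21 genes named in the report or here, Msln and Upk1b not counted. The interaction terms had adjusted p of up to 0.0399, and all 21 differences kept their direction in the length-adjusted fit. The effect on PRMT1 siRNA minus that on control siRNA was positive for the interferon-linked genes Oas2 (2.26), Oas3 (1.69), Iigp1 (1.48), Herc6 (0.77) and Nlrc5, a regulator of MHC class I genes (1.27). It was positive for the mesothelial Gpm6a (1.71) and Lrrn4 (1.33), for the metabolic genes Ak4 (1.12) and Pdk1 (0.86), and for Egr1 (1.17), Grem1 (1.14), Fgf7 (0.98) and Jade2 (0.91). It was negative for Saa3 (-4.50), Alpl (-2.20), H19 (-1.86), Wnt11 (-1.62), Sfrp1 (-1.15), F3 (-0.82), Col8a2 (-0.67) and Mmp14 (-0.50). H19 stood at 63.5 and 64.6 CPM with both siRNAs, against 52.9 and 59.0 CPM with PRMT1 siRNA alone, with TGF-beta. It stood at 107 and 140.0 CPM with p53 siRNA, against 30.1 and 29.2 CPM with control siRNA, so p53 siRNA went with a larger difference on control siRNA than on PRMT1 siRNA. The group of p53 siRNA with TGF-beta includes the library that stands apart.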

How the results depend on the processing

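The added p53 siRNA called 70 genes with 16 libraries and 66 with RLE factors. It called 225 with DESeq2, 3081 with voom quality weights, 586 with no filter, 2994 with only the 4 libraries compared, 2050 with 15 libraries, 351 with length offsets and 1743 with length offsets and 15 libraries. Leaving out 1 library of the comparison gave 1 to 13 calls, and 471, 784, 1154 and 460 with length offsets and 15 libraries, a setting chosen after seeing the data. The difference with and without TGF-beta was called for 6 genes, and for 6 with RLE factors, 96 with DESeq2, 4511 with voom, 1448 with no filter, 4282 with its own groups, 4191 with 15 libraries, 71 with length offsets, 2135 with both and 0 to 1 without 1 library. The difference between PRMT1 and control siRNA was called for 118 genes, and for 136 with RLE factors, 995 with DESeq2, 6 with voom, 3175 with no filter, 404 with 15 libraries, 524 with length offsets, 588 with both and 15 to 8433 without 1 library. With only its own groups edgeR called 0, with 1989 genes at an unadjusted p under 0.05. The replicate block gave 36, 0 and 75 calls for the 3 comparisons, and 1949, 2309 and 576 with length offsets and 15 libraries. With the block the 0 came with 1764 genes at an unadjusted p under 0.05. Replicate numbers are not said to pair libraries: deviations of same-numbered libraries correlated at -0.052 in the 2 groups compared and at -0.36 to 0.22 over 28 pairs of groups. All 43 called genes named in the text kept their direction in every setting, and 42 kept their call in all 4 fits with length offsets and 15 libraries that leave out a library, Rassf2 being the exception. Of those not called, Msln and Upk1b not counted, 69 were called in 1 or more settings and 8 changed sign. The log2 change of Col8a2 (0.06) was -0.0029 without replicate 1 of PRMT1 siRNA with TGF-beta, -0.054 there with length offsets, and -0.019 without replicate 1 of both siRNAs with length offsets. That of Oas3 (0.14) was -0.0016 and -0.067 without replicate 1 of PRMT1 siRNA, the second value with length offsets. That of Alpl (0.02) was -0.045 and -0.020 without that library and -0.12 and -0.10 without replicate 1 of both siRNAs, the second value of each with length offsets. That of Fn1 (0.12) was -0.047 with length offsets, -0.040 with 15 libraries as well, -0.043 with the block added and -0.036 without replicate 2 of both siRNAs. With length offsets and 15 libraries it was -0.027 and -0.061 without replicates 1 and 2 of PRMT1 siRNA and -0.14 without replicate 2 of both siRNAs. Without 1 library each, the ranges ran up to 0.28 for Fn1, 0.30 for Oas3 and 0.17 for Alpl. Without 1 library each, the log2 changes ran from -0.030 to 0.081 for Tnfrsf23 (0.020 with all), from -0.082 to 0.072 for Bcl2l11 (-0.010) and from -0.14 to 0.12 for Tap1 (-0.022). With length offsets and 15 libraries that of Tap1 was 0.104 without replicate 2 of PRMT1 siRNA and 0.036 without replicate 2 of both siRNAs, and that of Ckap2 (-0.026) was 0.0027 without replicate 1 of PRMT1 siRNA. The cause of these shifts was not tested. The median standard error of a log2 change was 0.16 with 16 libraries, where the smallest called change was 0.36, and 0.081 with length offsets and 15 libraries, where it was 0.12.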

Other observations

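Il33 rose, and the gene of its receptor, Il1rl1, moved the other way. Il1rl1 stood at 14.8 and 14.4 CPM with both siRNAs, against 22.5 and 21.97 CPM with PRMT1 siRNA alone (-0.61 ± 0.11, adjusted p = 0.0425). The groups of Il1rl1 did not overlap, which held for 30.7% of all tested genes in the lower direction. Socs3, a feedback inhibitor of cytokine signalling, stood at 34.7 and 32.2 CPM with both siRNAs, against 20.6 and 24.6 CPM with PRMT1 siRNA alone (0.56 ± 0.10, adjusted p = 0.047), also without overlap. In the higher direction 30.8% of all tested genes had groups without overlap. Il1rl1 and Socs3 were chosen after their values were seen.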
